A study of Mus musculus with 8 samples.

Results

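The clustered histone genes were followed in RNA from mouse sternal chondrocytes, the cells that build and fill cartilage. Members were all genes of the deposited tables whose symbol begins with Hist1h, Hist2h, Hist3h or Hist4h, which gave 44 of 16432 genes: 6 linker histone H1 genes, 10 H2A, 9 H2B, 9 H3 and 10 H4 genes. Of these, 36 lie in the Hist1 cluster on chromosome 13, 6 in the Hist2 cluster on chromosome 3, and 1 each at Hist3 on chromosome 11 and Hist4 on chromosome 6. The symbol rule itself reads no measured value, but the family was selected on earlier fold changes of Cre-Idh1 against the 2 controls in these same libraries. Its counts and medians are therefore a description of 8 libraries and no independent evidence of a direction; the p-values of single genes are adjusted over all genes tested, not over the family.

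The mice were C57BL/6 embryos at day 18.5. The Cre-Idh1 group (3 libraries) carried Col2a1Cre, a Cre recombinase driven by the cartilage collagen gene Col2a1, and Idh1 fl/+, that is, 1 floxed Idh1 allele. The Cre control (3 libraries) carried Col2a1Cre alone, and the floxed control (2 libraries) carried Idh1 fl/+ without Cre. The series title states that the chondrocytes express mutant Idh1, without naming the mutation; its design text writes fl/fl where the sample labels write fl/+, and the labels were followed. The library kit was KAPA Stranded mRNA-Seq, and the labels do not say whether each came from a separate animal, so p-values measure the spread between these libraries.

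Most clustered histone genes are replication-dependent: they are transcribed in S phase, lack introns, and their mRNAs end in a conserved stem-loop bound by the protein Slbp instead of a poly(A) tail. A kit that selects polyadenylated mRNA recovers such transcripts poorly. Some of these genes also give polyadenylated transcripts that run past the stem-loop, and these have been described in differentiated cells that have left the cell cycle.

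The stem-loop was looked for in the annotated transcripts (GENCODE M21, GRCm38; no source used here gives the build behind the deposited values), because it separates the usual histone mRNA end from a longer one. The search took a perfect 6-base stem starting with GG around a 4-base loop starting with T, within 120 bases of the stop codon. It found a stem-loop in 31 of 44 members, 22 to 55 bases after the stop codon. In 11 of the 13 members without one, the annotated transcript stops less than 50 bases after the stop codon. The arm was ggctct in all 22 members of classes H1, H2A, H2B and H3 with a stem-loop, and ggccct in 8 of the 9 such H4 members. Windows of 26 bases, with the stem arms in capitals and written 5′ to 3′ on the gene's strand, are shown for members on which the results below turn, one or more from each class with a stem-loop found among the genes that changed.
Hist1h1c: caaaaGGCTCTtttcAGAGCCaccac
Hist1h1d: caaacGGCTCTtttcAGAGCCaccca
Hist1h2ac: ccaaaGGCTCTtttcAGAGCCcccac
Hist1h2ad: acaaaGGCTCTtttcAGAGCCatcca
Hist1h2be: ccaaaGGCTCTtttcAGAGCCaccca
Hist1h3d: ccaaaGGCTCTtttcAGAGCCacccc
Hist1h4i: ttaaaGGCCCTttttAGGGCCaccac
Hist2h4: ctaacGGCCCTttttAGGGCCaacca
The Hist1h1c window lies at chr13:23739507-23739532 (plus strand), and its annotated transcript goes on for 840 bases beyond the stem. The Hist1h3d window lies at chr13:23576239-23576264 (plus strand), with 752 bases beyond, and the Hist2h4 window at chr3:96262934-96262959 (minus strand), with 1257 bases beyond. The Hist1h2ad window, at chr13:23574890-23574915 (plus strand), is followed by 42 annotated bases only.

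Each library held 31860422 to 44988540 reads, recovered from the deposited normalized counts, and the 44 members together took 8618 to 18242 of them. Xist and Y-linked genes marked 3 libraries as female (1 Cre-Idh1 library and 2 of the Cre control) and 5 as male. Idh1, the gene carried by the floxed allele, stood at 3654 ± 258 normalized counts (SD, n = 3) in Cre-Idh1, 3754 ± 205 (n = 3) in the Cre control and 2357 ± 133 (n = 2) in the floxed control. Its log2 fold change in Cre-Idh1 was -0.04 against the Cre control (limma adjusted p = 0.781) and 0.63 against the floxed control (adjusted p = 0.0105); gene counts of this kind do not show which allele the reads came from. The chondrocyte markers Col2a1, Acan, Sox9, Col9a1, Matn1, Hapln1 and Comp summed to between 6575788 and 9309181 normalized counts in every library.

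Against the Cre control, 13 members were higher in Cre-Idh1 and 0 lower, of 30 that reached 10 normalized counts in at least 3 of the 6 libraries. These 13 genes covered every histone class. The 2 most abundant members were among them: Hist1h2bc, an H2B gene, rose 3.57-fold, and Hist1h1c, the linker histone gene with the most reads of the family, rose 1.61-fold. The test was limma on log2(normalized count + 1), fitted on 14851 genes, two-sided, with Benjamini-Hochberg adjustment over all of them and a threshold of 0.05; fold changes are on that scale and understate the change of low genes. Over all genes tested, 19.2% were called, 9.8% higher and 9.39% lower. The median log2 fold change was 0.79 over the 30 tested members and -0.0092 over all genes tested, and the lowest member value was -0.14. Libraries of the 2 groups did not overlap, with Cre-Idh1 higher, for 17 of the 30 tested members, against 20.1% of all genes tested, and with Cre-Idh1 lower for 0 members, against 20.9%. Over all 44 members, tested or not, the Cre-Idh1 mean was the higher one in 35, or 79.5%, against 51.2% of all 16432 genes. Of the 30 tested members, 6 reached the minimum through the Cre-Idh1 libraries alone, and 3 of these, Hist1h2ad, Hist1h2ai and Hist1h4k, are among the 13.

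Against the floxed control, 12 members were higher in Cre-Idh1 and 0 lower, of 35 that reached 10 normalized counts in at least 2 of the 5 libraries. In the fit of 15212 genes, 14.4% were called, 7.47% higher and 6.96% lower. The median log2 fold change was 0.66 over the tested members and 0.0020 over all genes tested. Cre-Idh1 libraries lay wholly above the floxed control for 21 of the 35 tested members, against 26.6% of all genes tested, and wholly below for 3, Hist1h1a, Hist1h2ab and Hist1h3e, against 26.7%; these 3 were at 56.1 normalized counts or fewer in every library and none was called. All 12 genes were also among the 13 called against the Cre control, the one exception being Hist1h2ai; the 2 comparisons have separate controls but share the 3 Cre-Idh1 libraries. Of the 35 tested members, 7 reached the minimum through the Cre-Idh1 libraries alone, and 1 of these, Hist1h4k, is among the 12. Over all 44 members, tested or not, the Cre-Idh1 mean was the higher one in 31, or 70.5%, against 52.1% of all genes. With 2 floxed libraries the count rests on few samples: it was 1 without floxed control replicate 2 and 4 without replicate 1. Of the 12 calls, that of Hist1h2bc alone was kept in all 5 fits that left out 1 library, and those of Hist1h2ad, Hist1h4i, Hist2h3c2 and Hist3h2a were lost in 4 of them.

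**Figure D1:**
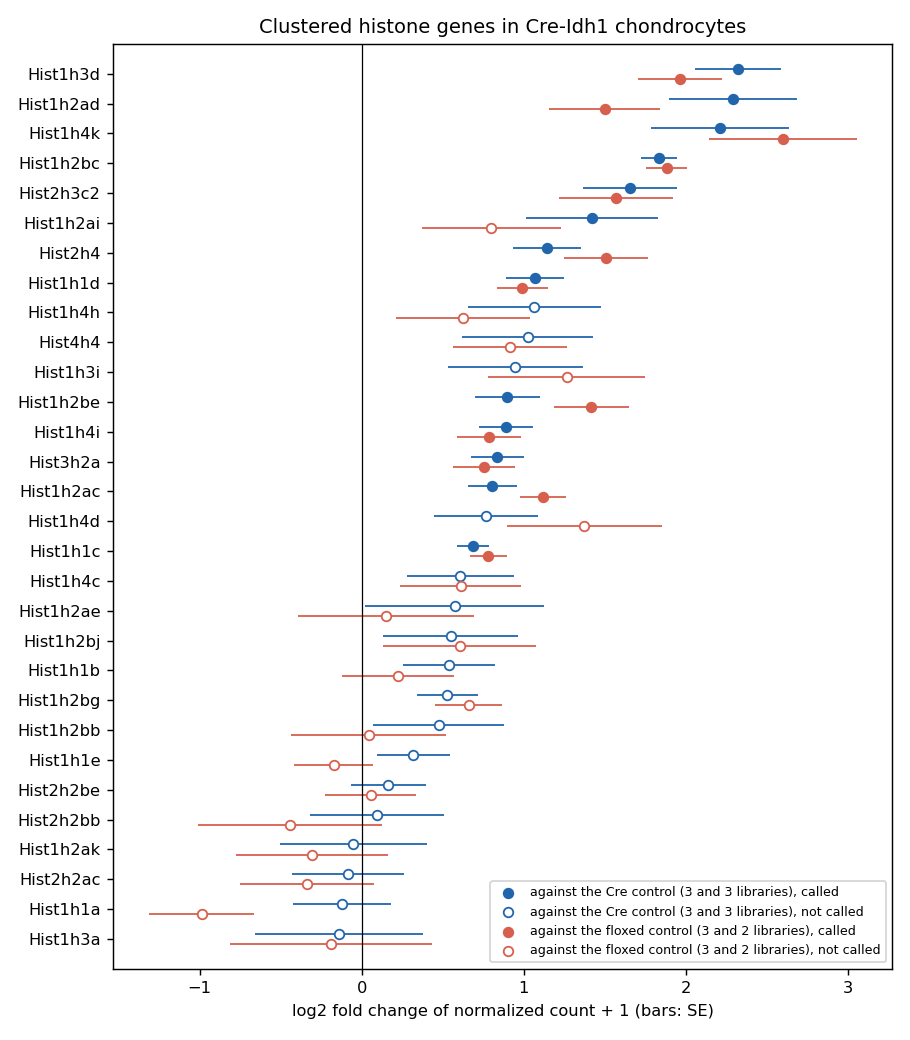
Log2 fold change (x axis, of normalized count + 1, bars are standard errors) of the 30 members tested in both comparisons, against the Cre control (blue) and the floxed control (red), with filled points for genes called at adjusted p under 0.05. The called genes lie between 0.69 and 2.60, and the points furthest left belong to Hist1h1a and other members that were not called.

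No member differed past the threshold between the controls. Between the floxed and the Cre control, limma called 0 of 31 tested members in either direction, against 0% of all genes higher and 0.0134% lower; 3 members had an unadjusted p under 0.05, and the lowest adjusted p was 0.558. The edgeR quasi-likelihood test on recovered reads and the authors' deposited table also called 0 members, against 0.0183% of all genes higher and 0.201% lower in that table. Libraries did not overlap for 5 of the tested members with the floxed control higher and for 3 with it lower, against 14.1% and 10.7% of all genes tested. The median log2 difference of the tested members, floxed minus Cre control, was 0.11, against 0.0085 over all genes tested. With 2 floxed and 3 Cre libraries, this says that no difference was detectable, not that there is none.

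Among linker histones, which bind the DNA where it enters and leaves the nucleosome, Hist1h1c (histone H1.2; chr13:23738808-23740367, plus strand) was the most abundant member by far and took 62.9% to 72.5% of all member reads. Its normalized counts were 10336, 11245 and 12005 in the Cre-Idh1 libraries, 6742, 7732 and 6433 in the Cre control and 6986 and 6059 in the floxed control. Every Cre-Idh1 library stood above every control library, and the 2 control groups overlapped. The log2 fold change was 0.69 ± 0.10 (SE, 3 against 3 libraries) against the Cre control, with limma adjusted p = 0.00258, and 0.78 ± 0.11 against the floxed control, with adjusted p = 0.00695.

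Hist1h1d (histone H1.3) was measured at 497, 613 and 492 normalized counts in Cre-Idh1, 307, 264 and 199 in the Cre control and 280.2 and 254 in the floxed control. The Cre-Idh1 libraries again lay above all 5 control libraries. The rise was 1.07 ± 0.18 on the log2 scale against the Cre control (limma adjusted p = 0.00461) and 0.99 ± 0.16 against the floxed control (adjusted p = 0.00895).

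The third abundant linker gene, Hist1h1e (histone H1.4), did not pass the test. It gave 173, 239 and 263 normalized counts in Cre-Idh1, 135, 195 and 212 in the Cre control and 212 and 295 in the floxed control, so that all 3 groups overlapped. Its log2 fold changes were 0.32 ± 0.22 (limma adjusted p = 0.348) and -0.17 ± 0.24 (adjusted p = 0.658). Its annotated transcript overlaps that of Hist1h2be on the same strand, so reads of the 2 genes could be split between them. The remaining H1 genes were at 106 normalized counts or fewer in every library, and Hist1h1t, known as a testis linker histone, was at 21.2 or fewer.

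**Figure D2:**
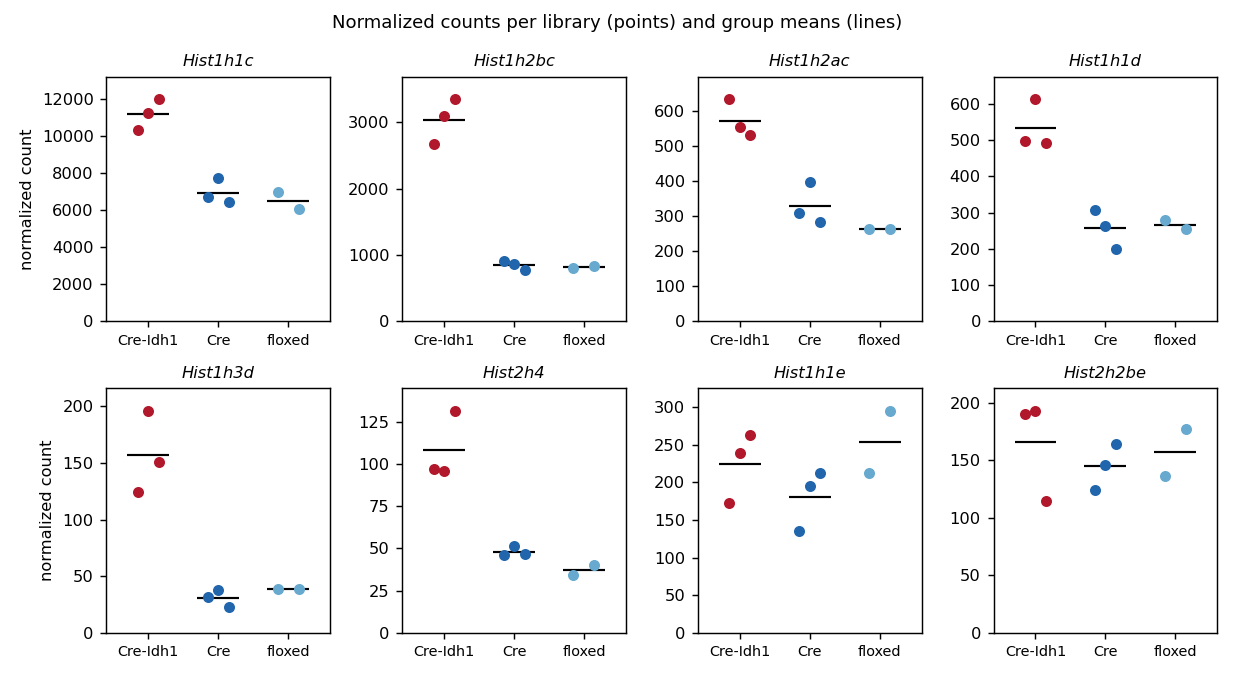
Normalized counts (y axis) of 8 members in each library (points) with group means (lines), for Cre-Idh1, the Cre control and the floxed control. In 6 panels the Cre-Idh1 points lie above all control points; in the Hist1h1e and Hist2h2be panels the groups overlap.

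Of the core histone genes, which code for the 4 proteins that form the nucleosome's octamer, Hist1h2bc (H2B; chr13:23684199-23692908, plus strand) was the most abundant. It was at 2665, 3100.4 and 3344 normalized counts in Cre-Idh1, 909.8, 864 and 773 in the Cre control and 802 and 841 in the floxed control. Every Cre-Idh1 library was above every control library by a wide margin. The log2 fold change was 1.83 ± 0.11 against the Cre control (limma adjusted p = 7.44e-05) and 1.88 ± 0.12 against the floxed control (adjusted p = 0.000966). Its share of member reads went from 8.11% to 9.60% in the control libraries to 16.4% to 18.1% in the Cre-Idh1 libraries. Its annotated transcript differs from the usual histone mRNA: it leaves its first exon 9 bases after the stop codon and continues in a second exon, past any stem-loop.

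The other H2B gene that rose was Hist1h2be, at 179, 240.2 and 168 normalized counts in Cre-Idh1, 119, 105 and 88.0 in the Cre control and 65.4 and 78.9 in the floxed control. Its annotated transcript has 2 exons, and its exons overlap those of Hist1h1e and Gm11398 on the same strand, so reads could be split between them. For Hist1h2be, all 3 groups were apart, with the floxed control lowest. Its log2 fold change was 0.90 ± 0.20 against the Cre control (limma adjusted p = 0.0158) and 1.41 ± 0.23 against the floxed control (adjusted p = 0.00978). The first of these calls was lost without Cre control replicate 2 or 3, and the second without either floxed control library. Hist2h2be, an H2B gene for which no stem-loop was found and whose annotated transcript runs 2192 bases beyond the stop codon, did not pass the test: it gave 190.2, 193 and 115 normalized counts in Cre-Idh1, 124, 146 and 165 in the Cre control, and 137 and 177 in the floxed control. These ranges overlap, and the log2 fold changes were 0.16 ± 0.23 (adjusted p = 0.655) and 0.05 ± 0.28 (adjusted p = 0.914).

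Among H2A genes, Hist1h2ac (chr13:23681467-23683948, minus strand) had 633, 554 and 530.0 normalized counts in Cre-Idh1, 309, 397 and 283 in the Cre control and 263 and 263 in the floxed control. Cre-Idh1 was above both controls without overlap. It rose by 0.81 ± 0.15 (limma adjusted p = 0.00798) and 1.12 ± 0.14 (adjusted p = 0.00459) on the log2 scale. Hist3h2a, the member at the Hist3 locus, was at 290.5, 319 and 238 in Cre-Idh1, 147, 175 and 149 in the Cre control and 179.6 and 153 in the floxed control, again without overlap. Its log2 fold changes were 0.84 ± 0.16 (adjusted p = 0.00893) and 0.76 ± 0.19 (adjusted p = 0.0394). The second call was lost in 4 of the 5 fits without 1 library, with a limma adjusted p of up to 0.303. Its transcript overlaps that of Trim17 on the same strand.

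The other H2A genes that were called, Hist1h2ad and Hist1h2ai, were low and share sequence with other genes. Hist1h2ad gave 41.4, 34.3 and 43.6 normalized counts in Cre-Idh1, 11.0, 8.2 and 4.1 in the Cre control and 15.6 and 11.4 in the floxed control. Its log2 fold changes were 2.29 ± 0.40 (limma adjusted p = 0.00557) and 1.50 ± 0.34 (adjusted p = 0.0287). Hist1h2ai was at 13.4, 22.6 and 23.4 in Cre-Idh1 against 5.5, 8.2 and 6.2 in the Cre control, a log2 fold change of 1.42 ± 0.41 with adjusted p = 0.0401; against the floxed control (10.7 and 10.5) it was 0.80 ± 0.43 with adjusted p = 0.246. Of all 50-base stretches in the annotated transcript, 67.1% for Hist1h2ad and 90.1% for Hist1h2ai also occur in other histone genes, so reads could be assigned to a near-identical copy. The call of Hist1h2ai was lost with embryo sex in the model (adjusted p = 0.0958) and in 5 of the 6 fits that left out 1 library.

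Of the H3 genes, Hist1h3d (chr13:23575763-23577011, plus strand) stood at 124, 196 and 151 normalized counts in Cre-Idh1, 31.9, 37.5 and 22.8 in the Cre control and 39.1 and 38.6 in the floxed control. The lowest Cre-Idh1 value was more than 3 times the highest control value. The log2 fold change was 2.32 ± 0.26 against the Cre control (limma adjusted p = 0.000811) and 1.96 ± 0.26 against the floxed control (adjusted p = 0.00496). Hist2h3c2 was at 62.0, 59.8 and 77.5 in Cre-Idh1, 15.4, 27.4 and 19.7 in the Cre control and 15.6 and 29.8 in the floxed control. Its Cre-Idh1 libraries lay above both controls, which overlapped each other, and its log2 fold changes were 1.65 ± 0.29 (adjusted p = 0.00589) and 1.57 ± 0.35 (adjusted p = 0.0272), with 63.5% of its 50-base stretches shared with other histone genes.

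Of the H4 genes, Hist1h4i gave 238, 252 and 199.7 normalized counts in Cre-Idh1, 119.9, 140.0 and 111 in the Cre control and 148 and 118 in the floxed control. Every Cre-Idh1 library was above every control library. It rose by 0.89 ± 0.17 (limma adjusted p = 0.00794) and 0.78 ± 0.20 (adjusted p = 0.0392) on the log2 scale. Hist2h4 (chr3:96261682-96263311, minus strand) was at 97.2, 96.1 and 132 in Cre-Idh1, 46.2, 51.2 and 46.6 in the Cre control and 34.2 and 40.3 in the floxed control, and it shares only 1.01% of its 50-base stretches with other histone genes. Its Cre-Idh1 libraries lay above all its control libraries, with log2 fold changes of 1.14 ± 0.21 (adjusted p = 0.00739) and 1.50 ± 0.26 (adjusted p = 0.0114). Hist1h4k was low, at 27.9, 56.9 and 28.7 in Cre-Idh1 against 9.9, 4.6 and 7.2 in the Cre control and 4.9 and 5.3 in the floxed control. Its Cre-Idh1 libraries lay above both controls, which overlapped each other, and Cre-Idh1 replicate 2 was highest. Its log2 fold changes of 2.21 ± 0.43 (adjusted p = 0.00893) and 2.60 ± 0.46 (adjusted p = 0.0122) rest on few reads, and 71.5% of its 50-base stretches occur in other histone genes.

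None of the other members was called by limma. Against the Cre control, 15 others were tested, of which 11 had a positive log2 fold change; they ran from -0.14 to 1.07, with a lowest adjusted p of 0.0832. Against the floxed control 20 others were tested, 12 of them positive, from -0.99 to 1.46, with a lowest adjusted p of 0.0740. The lowest value was that of Hist1h1a, and the lowest adjusted p that of Hist1h2bg, both chosen after their values were seen. Hist1h2bg, an H2B gene at 163 to 221 normalized counts in Cre-Idh1 and 109.6 to 155 in the controls, was called higher against the floxed control in the authors' deposited table (adjusted p = 0.0216) and not in limma. That table called 13 members higher in each comparison, against 11.7% and 12.3% of all genes, and the edgeR test called 13 and 12, against 9.83% and 7.13%. Neither called a member lower, against 9.24% and 7.42% of all genes by edgeR and 11.4% and 12.6% in the table.

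Summed over all 44 members, the family stood at 16203, 17887 and 18525 normalized counts in Cre-Idh1, 9481, 10665 and 8949 in the Cre control and 9694 and 8957 in the floxed control. The group means were 17538 ± 1199 (SD, n = 3), 9698 ± 878 (n = 3) and 9325 ± 522 (n = 2), a ratio of 1.81 to the Cre control and 1.88 to the floxed control, and of 0.962 between the controls. Since Hist1h1c sets most of that sum, the ratio without it was 2.32 and 2.26. By class, the ratio to the Cre control was 1.61 for H1, 1.75 for H2A, 2.85 for H2B, 2.80 for H3 and 2.01 for H4. In bulk RNA, more cells that express these genes and more RNA per cell cannot be told apart. No p is given for these sums, because the members were chosen with results known.

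**Figure D3:**
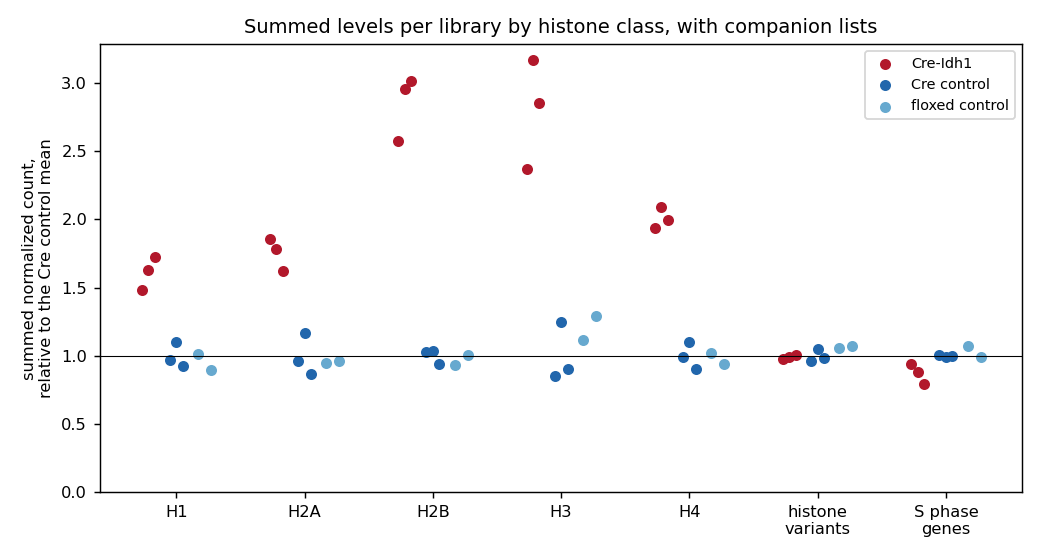
Summed normalized counts per library (points), divided by the Cre control mean, for the 5 histone classes, the histone variants (most of them replication-independent) and the S phase genes. In every histone class the Cre-Idh1 points lie above all control points, while those of the variants lie among the control points and those of the S phase genes below them.

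Levels of different genes were compared per length of annotated exon, as RPKM (reads per kilobase, scaled to library size). Hist1h1c had a mean RPKM of 122 in the Cre control and 189.6 in Cre-Idh1, and Hist1h2bc had 20.1 and 69.3. In the order of the Cre control, Hist1h2bg followed with 5.74 and 8.09, Hist1h4i with 4.64 and 8.38, Hist1h2ac with 3.63 and 6.13 and Hist1h1e with 2.55 and 3.07. In Cre-Idh1 this order differed, and Hist1h4i was above Hist1h2bg. Hist3h2a (3.49), Hist1h3d (3.30, from 0.67 in the Cre control) and Hist1h4k (3.18, from 0.64) were above Hist1h1e. These differences of means were not tested, and the value of Hist1h4k rests on few reads. Linker histone Hist1h1c thus led the family on this scale in both groups, with Hist1h2bc next. The exon lengths came from GENCODE M21 and may differ from those behind the deposited values.

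Calls were also counted by the annotated length beyond the stop codon, which the symbol rule does not use. In 21 members the annotated transcript runs at least 150 bases past the stop codon (154 to 4931), and in 23 it ends within 114 bases; the 150-base limit was set in that gap after the lengths were seen. A stem-loop was found in 19 of the 21 long-ended members, so these transcripts contain the stem-loop and continue beyond it. AATAAA or ATTAAA, the poly(A) signals, was found in the last 50 bases of 10 of the 21, against 1 of the 23 short-ended members. Members with under 50 annotated bases after the stop codon, all of them short-ended, were counted as lacking a signal whatever their sequence. Part of that contrast was therefore fixed by the lengths. For the calls that follow, limma called 9.8% of all genes tested higher against the Cre control and 7.47% against the floxed control. Against the Cre control, 10 of 17 tested long-ended members and 3 of 13 tested short-ended members were called higher, with median log2 fold changes of 0.84 and 0.54. Against the floxed control the counts were 10 of 18 and 2 of 17, with medians of 0.85 and 0.21. The short-ended genes among them were Hist1h2ad, Hist1h4k and, against the Cre control, Hist1h2ai, described above as sharing most of their sequence with other histone genes. Against the Cre control, all 3 had reached the minimum for testing through the Cre-Idh1 libraries alone, as had Hist1h4k against the floxed control, so they had to differ to be counted.

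Transcript end and level went together. The long-ended members summed to 8554 to 18052 normalized counts per library and the short-ended members to 238 to 473. Of 13 members with a mean of at least 50 normalized counts over the 8 libraries, 12 were long-ended. Of these 12, 9 were called higher in each comparison. Of all genes tested, 9.8% were called higher against the Cre control and 7.47% against the floxed control. The mean over 8 libraries takes in Cre-Idh1, so level and calls are partly tied by construction. Hist1h3d averaged 30.7 (Cre control), 38.8 (floxed control) and 157 (Cre-Idh1), and Hist2h4 48.0, 37.2 and 108. Both reached 50 through Cre-Idh1, and both are among the 9. Below a mean of 50, a limit also chosen after the values were seen, 1 of 5 tested long-ended members and 3 of 12 tested short-ended members were called against the Cre control, and 1 of 6 and 2 of 16 against the floxed control. The median log2 fold changes of these low members were 0.77 for long ends and 0.51 for short ends against the Cre control, and 0.76 and 0.13 against the floxed control; the difference between the 2 kinds of end was not tested. Among the abundant members there was only 1 short-ended gene, Hist1h1b, which was not called (0.54 ± 0.28, limma adjusted p = 0.212 against the Cre control). Whether the end or the level goes with the calls cannot be told apart here.

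**Figure D4:**
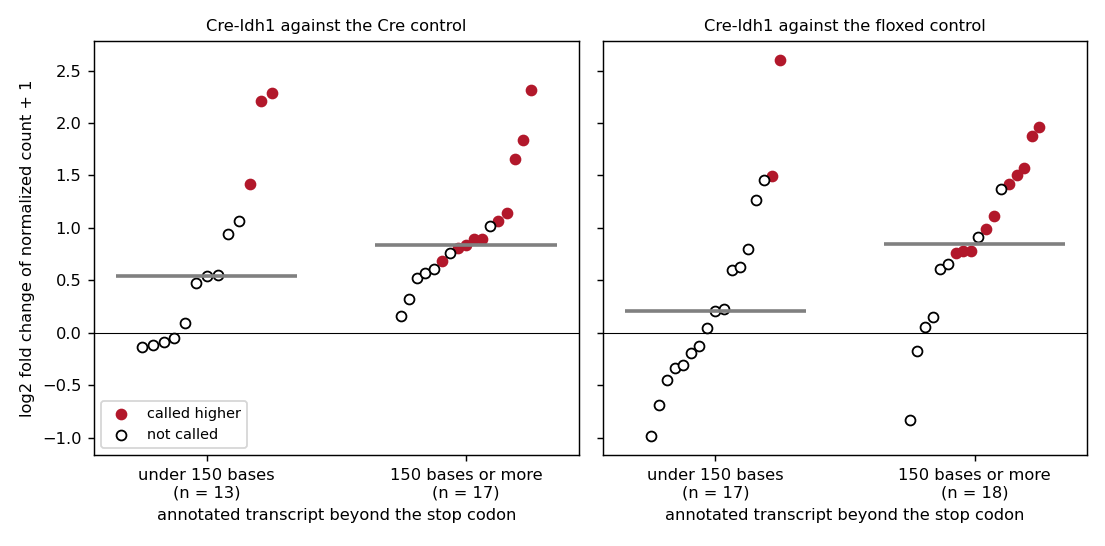
Log2 fold change (y axis, of normalized count + 1) of tested members whose annotated transcript runs under 150 bases or at least 150 bases beyond the stop codon, against the Cre control (left) and the floxed control (right); red points were called higher and grey lines are medians. The medians are 0.54 and 0.84 on the left and 0.21 and 0.85 on the right.

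Some neighbours in the clusters start close together. In 4 places an H2A and an H2B gene start back to back, less than 300 bases apart: Hist1h2ac with Hist1h2bc, Hist1h2ae with Hist1h2bg, Hist1h2ak with Hist1h2bn, and Hist2h2ac with Hist2h2be. In the first pair, whose starts lie 250 bases apart, both genes were called higher in both comparisons; in the other 3 pairs, limma called no gene, with Hist1h2bn not tested, and the authors' deposited table called Hist1h2bg against the floxed control. The stretch of the first pair, annotated as the promoter of Hist1h2ac, is shown because it lies between the starts of 2 genes that were called. Whether it acts on both genes was not tested, and no promoter was matched for Hist1h2bc. It is shown together with the promoter of Hist1h3d, the H3 gene described above. Both come from RefSeq (GRCm38.p6) and span 250 bases before to 50 after the start, with TATAAA (the TATA box), CCAAT (the CCAAT box) and TTTGCAT (part of the octamer element known from H2B promoters) in capitals, on either strand, so that a motif on the other strand reads as its reverse complement.
Hist1h2ac: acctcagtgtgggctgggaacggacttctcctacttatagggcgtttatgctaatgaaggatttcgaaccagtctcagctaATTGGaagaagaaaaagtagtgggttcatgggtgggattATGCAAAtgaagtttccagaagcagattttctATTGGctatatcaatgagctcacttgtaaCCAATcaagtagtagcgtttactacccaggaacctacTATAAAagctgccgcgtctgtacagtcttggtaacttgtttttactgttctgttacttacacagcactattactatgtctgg
Hist1h3d: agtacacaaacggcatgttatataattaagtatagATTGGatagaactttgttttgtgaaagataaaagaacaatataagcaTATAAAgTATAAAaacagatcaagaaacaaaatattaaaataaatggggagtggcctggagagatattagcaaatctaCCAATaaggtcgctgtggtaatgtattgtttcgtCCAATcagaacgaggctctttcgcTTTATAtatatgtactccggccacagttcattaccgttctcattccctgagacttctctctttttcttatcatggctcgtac
The first lies at chr13:23683910-23684209 (minus strand) and holds 1 TATAAA, 3 CCAAT and 1 TTTGCAT. The second lies at chr13:23575513-23575812 (plus strand) and holds 3 TATAAA, 3 CCAAT and 0 TTTGCAT. A RefSeq promoter was matched for 40 of the 44 members. Among those 40, TATAAA was present in 22, CCAAT in 34 and TTTGCAT in 10, while 14.2%, 37.9% and 4.59% of all 27025 promoters in the table held them; each motif was counted on its own, so a base can belong to more than 1 of them, and a match describes letters, not a bound site.

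Histone variant genes, most of which are replication-independent and polyadenylated throughout the cell cycle, are not members and were read beside them. Of 11 such genes, all tested with limma, 0 rose and 2 fell against the Cre control, with a median log2 fold change of -0.026, and 1 rose and 2 fell against the floxed control, with a median of -0.18. Over all genes tested, limma called 9.8% higher and 9.39% lower against the Cre control, and 7.47% and 6.96% against the floxed control. The authors' deposited table called 2 higher and 2 lower in each comparison, the 2 higher against the Cre control being H2afx and H3f3b. Over all genes, that table called 11.7% higher and 11.4% lower against the Cre control, and 12.3% and 12.6% against the floxed control. H2afy2, a macroH2A gene, fell from 935 ± 104 (SD, n = 3) normalized counts in the Cre control and 993 ± 24.9 (n = 2) in the floxed control to 526 ± 42.5 (n = 3) in Cre-Idh1, a log2 fold change of -0.83 ± 0.12 (limma adjusted p = 0.00244) and -0.92 ± 0.13 (adjusted p = 0.00582). H1f0, the linker histone typical of cells that have stopped dividing, fell by 0.48 (adjusted p = 0.00915) and by 0.71 (adjusted p = 0.00702) on the log2 scale. H2afj, an H2A variant, rose by 0.72 ± 0.15 against the floxed control (adjusted p = 0.0226); against the Cre control its value was 0.27 ± 0.11 (adjusted p = 0.113). The summed level of the 11 genes was 37904 to 38994 in Cre-Idh1, 37367 to 40594 in the Cre control and 40903 to 41359 in the floxed control.

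The genes that transcribe, cut and degrade histone mRNA gave no calls in limma, which called 19.2% of all genes tested against the Cre control and 14.4% against the floxed control. Of 16 genes, which include Slbp, the stem-loop binding protein, Npat, the factor that drives histone transcription in S phase, and the U7 snRNP proteins Lsm10 and Lsm11, limma called 0 in either direction in each comparison, while 4 and 2 had an unadjusted p under 0.05. The edgeR test also called 0. Of all genes tested, it called 9.83% higher and 9.24% lower against the Cre control, and 7.13% and 7.42% against the floxed control. The authors' deposited table called 0 higher and 1 lower against the Cre control and 1 higher and 1 lower against the floxed control. Its shares of all genes were 11.7% higher and 11.4% lower against the Cre control, and 12.3% and 12.6% against the floxed control. The log2 fold change of Slbp was -0.08 ± 0.09 (limma adjusted p = 0.571) and -0.03 ± 0.12 (adjusted p = 0.863).

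Genes of S phase and DNA replication gave calls in the lower direction. Of 24 tested with limma, 0 rose and 6 fell against the Cre control, with a median log2 fold change of -0.18, and 0 rose and 4 fell against the floxed control, with a median of -0.27. Over all genes tested, limma called 9.39% and 6.96% lower. The authors' deposited table called 9 and 10 of the 24 lower and 0 higher, against 11.4% and 12.6% of all genes lower. Rrm2, the regulated subunit of ribonucleotide reductase, had 514 ± 79.2 (SD, n = 3) normalized counts in Cre-Idh1 and 886 ± 17.7 (n = 3) in the Cre control, a log2 fold change of -0.80 ± 0.13 (limma adjusted p = 0.00415), and -0.98 ± 0.16 against the floxed control (adjusted p = 0.00963). Tyms (-0.63, thymidylate synthase), Tk1 (-0.54, thymidine kinase) and Uhrf1 (-0.54, a cofactor of maintenance DNA methylation) fell against the Cre control, and Tk1 (-0.75), Rrm1 (-0.63, the large reductase subunit) and Prim1 (-0.55, a primase subunit) against the floxed control. The summed level of the 24 genes was 18353 to 21743 in Cre-Idh1 and 22831 to 24691 in the 5 control libraries, so the groups did not overlap. Of 18 histone chaperones, Anp32e, which removes H2A.Z from chromatin, was the 1 gene called by limma: it fell by 0.52 (adjusted p = 0.00893) and by 0.64 (adjusted p = 0.0184) on the log2 scale. The authors' deposited table called 5 of the 18 chaperones lower and 0 higher against the Cre control and 5 lower and 1 higher against the floxed control. The shares of all genes called lower given above stand beside these chaperone counts too. They were 9.39% and 6.96% in limma and 11.4% and 12.6% in that table. None of the genes in these 4 lists was called between the 2 controls.

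Markers of other cell types were read in the same libraries. Beside the counts below stand the limma shares of all genes tested. These were 9.8% higher and 9.39% lower against the Cre control, and 7.47% and 6.96% against the floxed control. Of the macrophage markers C1qa, C1qb, C1qc, Cd68, Csf1r, Adgre1 and Mrc1, 6 were listed, and 4 of 5 tested were higher against the Cre control and 5 of 6 against the floxed control. Their summed level was 892 to 1677 in Cre-Idh1, 477 to 762 in the Cre control and 514 to 589 in the floxed control, and no listed marker was at 0. The macrophage sum was thus higher in the same group, Cre-Idh1, as the clustered histone genes. Within that group the libraries ranked differently. In replicates 1 to 3, the macrophage sums were 1677, 892 and 1126, and the summed histone counts 16203, 17887 and 18525. The part of macrophage RNA in the histone values was not tested. The erythroid sum was 881 to 4357 in Cre-Idh1 and 1017 to 5074 in the controls, with 0 markers called. The endothelial sum was 199 to 701 and 151 to 244, also with 0 called in limma. The skeletal muscle sum was 184 to 297 in Cre-Idh1, 54.8 to 63.1 in the Cre control and 42.1 to 428 in the floxed control, with 1 of 2 tested markers higher against the Cre control. Among the 7 chondrocyte markers, 1 was lower against the Cre control and 0 differed against the floxed control.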

How the data were processed

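Poly(A) RNA libraries of 8 samples (3 Cre-Idh1, 3 Cre control, 2 floxed control) were analysed. The tools named, per the submitters' processing notes, are STAR, HTSeq, DESeq2, Trim Galore and cutadapt. The sources used here give neither their versions nor the genome build, the annotation or the strand setting of the counting. The deposited tables, 1 for each pair of groups, hold normalized counts, treated here as a signal, and per the file headers the authors' log2 fold changes, the test statistic (a score), p-values and adjusted p-values. Values of 1 library were identical in all tables in which it occurs. Dividing by the value of 1 read gave whole reads for 100% of values within 0.001, so totals per library are recovered reads.

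Log2(value + 1) was tested with limma 3.58.1 with a mean-variance trend (R 4.3.3), with only the 2 groups compared in a fit, a minimum of 10 in a number of libraries equal to the size of the smaller group, and Benjamini-Hochberg adjustment over all genes tested. edgeR 4.0.16 quasi-likelihood on recovered reads was the count-model alternative. Other alternatives were a pseudocount of 5, no minimum, TMM scaling, library totals alone, all 8 libraries in 1 fit, a threshold of 0.1, embryo sex as covariate, and leaving out each library. The fit was tested on simulated data. Transcript ends, stem-loops and shared 50-base stretches came from the longest protein-coding transcript in GENCODE M21: 39 members were matched by gene ID and 5 by symbol, among which Hist2h2bb is uncertain, because its ID belongs to another gene there. Of 70 family symbols in that annotation, 26 are not listed in the deposited tables. No listed gene had fewer than 10 recovered reads over the 8 libraries, Cre-Idh1 included. The 44 members are therefore the family genes with reads in these libraries, not the whole family. Genes named are the 8 members with the highest mean, the called members, up to 4 called genes of each companion list, and Idh1; others are named where stated. Members, companion lists and markers were chosen with earlier results of these data known. No batch is given in the labels.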

Additional observations from a re-analysis of the deposited data

How the results depend on the processing

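Against the Cre control, the count of members called higher stayed at 11 to 13 when 1 library was left out, and no member was called lower under any alternative run; with 3 against 3 libraries, the call of Hist1h2ai (sex covariate, 5 of 6 fits without 1 library) and that of Hist1h2be (without Cre control replicate 2 or 3) were the ones lost. Against the floxed control, the count ran from 1 to 14 when 1 library was left out: it was 8 without Cre-Idh1 replicate 1 or 2, 4 without floxed control replicate 1 and 1 without replicate 2, where the lone floxed library is assumed to vary like the other group. One member, Hist1h1a, was called lower against the floxed control with all 8 libraries in 1 fit and at an adjusted p under 0.1 (1 in each). The summed level without Hist1h1c was higher by 1.22 (Cre control) and 1.18 (floxed control) on the log2 scale, against 0.85 and 0.91 with it. For single named genes, 216 of 225 values were the same against the Cre control, and 167 of 195 against the floxed control. For a called gene, the same meant that it kept its direction and its call. For a gene not called in either run, it meant a shift smaller than the standard error, whatever the sign. Against the floxed control, the 28 others were no longer past the threshold. Of these, 27 came from leaving out a library and 1, Hist1h4i, from library totals alone. No value of a called member changed sign. Scalings moved the median of all genes by less than 0.1. No paired analysis was possible because the labels give no pairing of libraries between the groups. Low counts limit the members below about 50 normalized counts.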
